A study of Mus musculus with 51 samples.

Results

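The Twist, Hand and other basic helix-loop-helix (bHLH) genes examined here are 9 genes, Twist1, Twist2, Hand1, Hand2, Bhlha9, Tcf3, Tcf4, Tcf12 and Tcf21, of 18194 genes on the array. They were chosen by name, as the genes carrying these symbols in the annotation of the array, and they are read by 24 probe sets with a single symbol. bHLH proteins bind DNA as dimers, at a short motif called the E-box, spelled CANNTG. The E proteins, encoded by Tcf3, Tcf4 and Tcf12, are present in most tissues and serve as the common partners, whereas Twist, Hand, Bhlha9 and Tcf21 proteins are restricted to particular tissues and pair with an E protein or with each other. Id proteins lack the DNA-binding region and hold E proteins in inactive pairs. In the limb bud, Hand2 marks the posterior mesenchyme and acts upstream of Shh, Twist1 is required for outgrowth of the mesenchyme, and Bhlha9 is expressed in the apical ectodermal ridge, the strip of epithelium that keeps the bud growing.

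Total RNA of FVB wild-type mouse embryos was hybridised to 51 whole-genome Affymetrix arrays, 22 of forelimb, 19 of hindlimb and 10 of whole embryo. Forelimb was hybridised on 3 arrays on embryonic day E9.5, on 4 arrays on E11.5 and on 5 arrays on each of E10.5, E12.5 and E13.5. Hindlimb, first taken on E10.5, had 4 arrays then and 5 arrays on every later day. Whole embryos, in which the limbs were left on, had 2 arrays on each of the 5 days. Each sample came from 1 embryo and the limb samples of a stage from 1 litter, so that litter and stage cannot be told apart and p-values measure the spread between littermates. All values are log2 of the deposited signal, as the mean of a gene's probe sets, and a call needed a change of at least 2-fold at an adjusted p under 0.001 in limma. In whole pieces of tissue, fewer cells of a type and less RNA per cell cannot be told apart.

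The 10 whole-embryo arrays and the 3 E9.5 forelimb arrays differed in their controls from the 38 later limb arrays. The bacterial spike Dap read 10.71 to 13.29 on these 13 arrays and 3.04 to 3.63 on the later 38, and the 3′ probe set of Gapdh exceeded its 5′ probe set by 1.48 to 2.85 and by -0.10 to 0.16 on the same sets. E9.5 forelimb against whole embryo, forelimb against hindlimb, and limb stages from E10.5 on were therefore compared within a set. Limb against whole embryo from E10.5 on and the step of the forelimb from E9.5 to E10.5 cross between the sets. There tissue or stage cannot be told apart from the set. Controls also differed within the set of 13. Dap read 12.80 to 13.29 in E9.5 forelimb and 11.61 to 11.74 in E9.5 whole embryo. The Gapdh excess was 1.48 to 1.73 and 2.03 to 2.85 in these groups. The limb marker list (Prrx1, Prrx2, Msx1, Lhx2 and Lhx9) was called higher in full, 5 of 5, in E9.5 to E11.5 forelimb and in E10.5 and E11.5 hindlimb. At E12.5 and E13.5 it was not called in full in either limb. In E13.5 forelimb 4 of the 5 were higher and 1 lower at an unadjusted p under 0.05 in limma. The lower one was Lhx2, at 7.70 to 7.99 against 8.20 and 8.25 in E13.5 whole embryo. For 2 arrays the title and the source label name different tissues or stages, and Tbx5, Tbx4 and Pitx1 read on both as in the group of the title. Replicate 3 of E10.5 hindlimb stood apart, with a summed signal of 6 neuronal markers of 1382, against 196 to 255 on the 3 other arrays of its group. Its sums were also high for 8 heart markers (1439 against 175 to 347) and 8 skeletal muscle markers (862 against 384 to 481).

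The promoters of the genes that moved most with stage, Hand2 and Bhlha9, and of the pair of Twist genes, which moved less than these, are shown first, because the E-box is the motif that proteins of this family bind. Promoters of 7 of the 9 genes were searched. Those shown are the 250 bases before the annotated start in RefSeq, build GRCm38.p6, all on the plus strand: Hand2 at chr8:57320733-57320982, Bhlha9 at chr11:76672220-76672469, Twist1 at chr12:33957421-33957670 and Twist2 at chr1:91801211-91801460. Capitals mark matches to CANNTG, which reads the same on both strands.
Hand2: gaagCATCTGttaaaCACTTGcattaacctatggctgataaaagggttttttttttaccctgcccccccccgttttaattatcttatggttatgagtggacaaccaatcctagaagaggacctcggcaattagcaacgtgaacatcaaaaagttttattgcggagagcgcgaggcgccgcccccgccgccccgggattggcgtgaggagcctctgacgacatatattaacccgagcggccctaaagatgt
Bhlha9: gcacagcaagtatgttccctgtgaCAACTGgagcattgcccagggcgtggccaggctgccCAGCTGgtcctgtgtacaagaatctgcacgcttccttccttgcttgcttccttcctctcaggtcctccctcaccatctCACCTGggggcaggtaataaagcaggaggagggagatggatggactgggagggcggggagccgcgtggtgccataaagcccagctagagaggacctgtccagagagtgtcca
Twist1: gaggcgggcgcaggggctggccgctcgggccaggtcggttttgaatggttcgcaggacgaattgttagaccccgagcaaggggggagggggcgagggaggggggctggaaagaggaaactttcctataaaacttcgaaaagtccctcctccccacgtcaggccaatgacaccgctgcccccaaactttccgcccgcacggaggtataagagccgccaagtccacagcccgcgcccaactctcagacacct
Twist2: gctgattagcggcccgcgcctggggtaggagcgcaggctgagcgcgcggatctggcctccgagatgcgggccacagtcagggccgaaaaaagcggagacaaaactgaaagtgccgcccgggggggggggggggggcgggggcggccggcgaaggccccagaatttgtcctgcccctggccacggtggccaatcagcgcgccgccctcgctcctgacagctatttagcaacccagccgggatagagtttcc
The Hand2 window held 2 E-boxes, which begin 246 and 235 bases before the start. The Bhlha9 window held 3, which begin 226, 190 and 112 bases before it. No match was found in the windows of Twist1, Twist2 and Tcf21, 1 in that of Tcf3, and 1, 1 and 0 in those of the 3 starts of Tcf12. Of 32851 promoters of this length, 66.2% held at least 1 match, 31.8% at least 2 and 12.2% at least 3. A match is a description of the letters and not a binding site.

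To determine which bHLH genes were enriched in the limb, limb and whole embryo were compared stage by stage. In 81 values, 9 genes in 9 comparisons, 39 were called higher and 7 lower in the limb, and 68 had an adjusted p under 0.05. Of the 9 genes, 4 were up-regulated and 0 down-regulated in E9.5 forelimb, where 2.08% and 1.61% of all genes were. E10.5 forelimb had 5 up and 1 down (10.49% and 3.44% of all genes), E11.5 forelimb 6 and 1 (11.67% and 3.64%), E12.5 forelimb 3 and 1 (8.52% and 5.44%), and E13.5 forelimb 2 and 1 (5.54% and 8.12%). E10.5 hindlimb had 5 up and 0 down (9.77% and 3.41% of all genes), E11.5 hindlimb 6 and 1 (11.76% and 3.95%), E12.5 hindlimb 4 and 1 (7.11% and 5.43%), and E13.5 hindlimb 4 and 1 (6.1% and 8.35%). The 7 down-regulated values were those of Tcf21, and the up-regulated ones made up a larger share of the 9 genes than of all genes in each of the 9 comparisons. The 9 genes were chosen by name with earlier results of these data known, so this share is a description and not a test. With 3 arrays against 2, the 4 calls in E9.5 forelimb rested on the spread of all groups, and with these 5 arrays alone in the fit no member was called there (adjusted p of 0.00173 for Bhlha9, 0.0826 for Twist1, 0.0965 for Twist2 and 0.283 for Tcf3). The median log2 fold change of the 9 genes was 1.54 in E11.5 forelimb and 1.46 in E11.5 hindlimb, against 0.09 and 0.07 over all genes. When the arrays were quantile-normalized again, 38 of the 81 values were called, and the share of up-regulated genes among all called genes was 35.9% in place of 56.3% in E9.5 forelimb, 51.2% in place of 75.3% at E10.5, 51.7% in place of 76.2% at E11.5 and 47% in place of 61% at E12.5. In hindlimb this share was 51.4% in place of 74.1% at E10.5, 49.9% in place of 74.9% at E11.5 and 46.6% in place of 56.7% at E12.5.

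**Figure D1:**
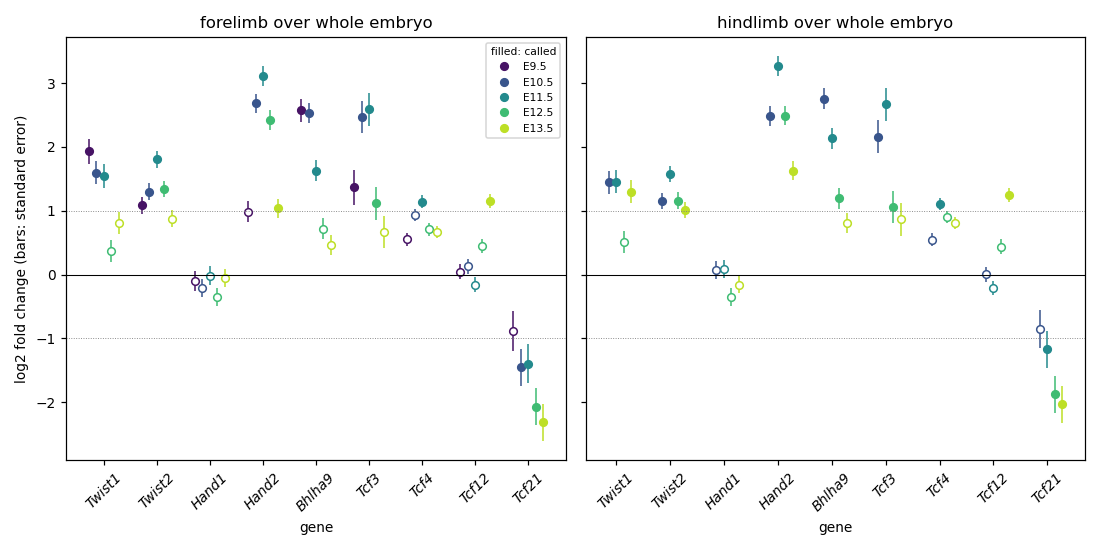
Log2 fold change of the 9 bHLH genes in forelimb (left) and hindlimb (right) over whole embryo of the same stage, by gene on the horizontal axis and by stage in colour, with standard errors of the fit and filled points for called values. Hand2 reaches 3.11 in E11.5 forelimb and 3.27 in E11.5 hindlimb, Tcf21 lies at -2.31 and -2.03 at E13.5, and Hand1 stays between -0.36 and 0.08.

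Hand2, the posterior factor, was called higher in the limb than in whole embryo in 8 of 9 comparisons, and at E11.5 it had the largest log2 fold change of the 9 genes in both limbs. Array by array it read 7.23, 7.12 and 6.89 in E9.5 forelimb, 8.76, 8.83, 8.65, 8.61 and 8.95 at E10.5, 9.04, 9.10, 8.85 and 9.09 at E11.5, 8.74, 8.89, 8.74, 8.56 and 8.54 at E12.5, and 6.84, 6.80, 6.65, 6.59 and 6.62 at E13.5. In hindlimb it read 8.53, 8.65, 8.19 and 8.90 at E10.5, 9.21, 9.09, 9.28, 9.18 and 9.13 at E11.5, 8.86, 8.74, 8.67, 8.74 and 8.79 at E12.5, and 7.31, 7.57, 7.35, 6.97 and 7.22 at E13.5. All 10 whole-embryo arrays lay between 5.60 and 6.47, below every limb array. Levels were thus highest at E11.5 in both limbs, and the 6 limb groups from E10.5 to E12.5 overlapped their neighbours in the order of means, whereas both E13.5 groups and E9.5 forelimb lay below them all.

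Hand2 was 8.64-fold higher in E11.5 forelimb (9.02 ± 0.11, SD, n = 4) than in whole embryo (5.91 ± 0.21, n = 2), with an adjusted p of 7.76e-21, and 9.63-fold higher in E11.5 hindlimb (9.18 ± 0.08, n = 5; adjusted p = 4.03e-22). The enrichment was 6.43-fold and 5.36-fold in forelimb and 5.62-fold and 5.61-fold in hindlimb at E10.5 and E12.5. At E13.5 it was 2.06-fold in forelimb and 3.09-fold in hindlimb, and the forelimb value was 0.98 on the log2 scale, no longer called, without replicate 1 of E13.5 whole embryo. Of the 3 probe sets, 1 was called in E13.5 forelimb (range 0.55 to 1.60) and 3 in E13.5 hindlimb (1.34 to 2.07). For E9.5 forelimb the log2 difference was 0.98 (adjusted p = 9.01e-06), just short of 2-fold, on arrays that did not overlap those of whole embryo.

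Between consecutive stages, 3 of 36 forelimb values and 1 of 27 hindlimb values of the 9 genes were called, of which Hand2 gave 3. The shares of all genes called higher and lower were 5.74% and 1.8% for E10.5 over E9.5 forelimb, 1.71% and 0.363% for E11.5 over E10.5 forelimb, 0.599% and 0.165% for E12.5 over E11.5 forelimb, and 1.42% and 1.29% for E13.5 over E12.5 forelimb. In hindlimb they were 1.95% and 0.368% for E11.5 over E10.5, 0.583% and 0.242% for E12.5 over E11.5, and 1.55% and 0.396% for E13.5 over E12.5. It was 3.20-fold higher in E10.5 than in E9.5 forelimb (adjusted p = 1.54e-14), a step between array sets. From E10.5 to E12.5 the steps in either limb were under 2-fold, with 0.61 (adjusted p = 9.50e-05) for E11.5 over E10.5 hindlimb as the largest, and -0.33 and -0.42 for E12.5 over E11.5 in forelimb and hindlimb, without overlap of arrays in hindlimb. The last step was the largest decrease. Hand2 fell 3.98-fold in E13.5 against E12.5 forelimb (log2 -1.99, standard error 0.11, adjusted p = 4.78e-18) and 2.78-fold in E13.5 against E12.5 hindlimb (log2 -1.47, standard error 0.11, adjusted p = 5.75e-14). The summed signal of the 5 limb mesenchyme markers was lower too, 1649 to 1822 in E13.5 forelimb against 3437 to 4207 in E12.5 forelimb, and 2374 to 2707 in E13.5 hindlimb against 3697 to 4168 in E12.5 hindlimb, and its part in the Hand2 values was not tested. All 3 probe sets of Hand2 were lower. The E13.5 over E10.5 values were -2.65, -1.42 and -2.11 in forelimb and -1.63, -0.61 and -1.61 in hindlimb for 1422221_at, 1436041_at and 1443854_at, of which only the -0.61 was not called.

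**Figure D2:**
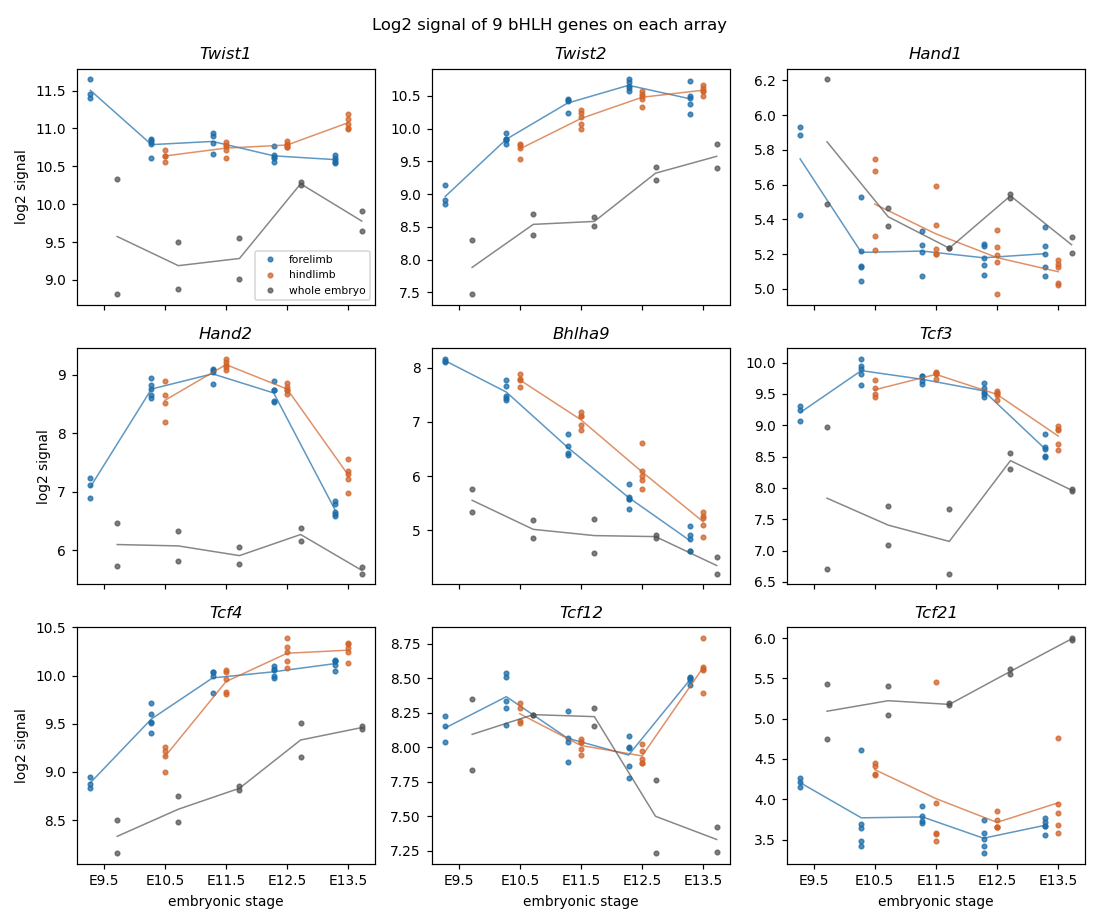
Log2 signal of each of the 9 genes by embryonic stage, with 1 point per array, lines through the group means, and forelimb, hindlimb and whole embryo in separate colours. Hand2 is highest at E11.5 and falls to 6.70 in E13.5 forelimb and 7.29 in E13.5 hindlimb, Bhlha9 is lower at each later stage in both limbs, and Tcf21 lies above every limb mean in whole embryo.

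Bhlha9, the ridge factor, showed the steadiest course. Its single probe set read 8.10, 8.12 and 8.17 in E9.5 forelimb, 7.48, 7.45, 7.77, 7.66 and 7.40 at E10.5, 6.77, 6.55, 6.43 and 6.39 at E11.5, 5.62, 5.86, 5.57, 5.58 and 5.39 at E12.5, and 4.84, 5.08, 4.91, 4.61 and 4.62 at E13.5. In hindlimb it read 7.64, 7.77, 7.80 and 7.88 at E10.5, 7.11, 7.18, 7.11, 6.85 and 6.94 at E11.5, 5.77 to 6.61 on 5 arrays at E12.5 (mean 6.08), and 5.26, 5.33, 5.23, 4.88 and 5.09 at E13.5. Whole-embryo arrays lay between 4.20 and 5.76. No array of a stage overlapped those of the stage before in either limb, and the levels of E13.5 forelimb lay among those of whole embryo of other stages.

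Over whole embryo of its stage Bhlha9 was 5.95-fold higher in E9.5 forelimb (8.13 ± 0.04, SD, n = 3, against 5.55 ± 0.29, n = 2). The adjusted p was 2.34e-15 in limma and 0.00173 with these arrays alone. This comparison lies within 1 array set, though the controls of these groups differed. Bhlha9 was 5.78-fold and 3.09-fold higher in E10.5 and E11.5 forelimb. In hindlimb it was 6.75-fold, 4.39-fold and 2.29-fold higher at E10.5, E11.5 and E12.5. The remaining differences, 0.72 and 0.46 on the log2 scale in E12.5 and E13.5 forelimb and 0.81 in E13.5 hindlimb, were under 2-fold at adjusted p of at most 0.0145. The forelimb steps were -0.58, -1.02, -0.93 and -0.79 from E10.5 to E13.5, each against the stage before, and the hindlimb steps -0.74, -0.96 and -0.92. Only the step to E11.5 in forelimb was called, and it lost the call, at -0.99 to -0.96, without any of 4 arrays. Over the 3 days from E10.5 the decrease was called in both limbs, 6.67-fold in forelimb (adjusted p = 4.68e-23) and 6.13-fold in hindlimb (adjusted p = 2.20e-21). Between these stages 3 of the 9 genes were called lower and 0 higher in forelimb, against 5.13% and 5.43% of all genes, and 2 lower and 1 higher in hindlimb, against 5.16% and 5.99% of all genes. Of 7 surface ectoderm markers, Krt5, Krt14 and Krt15 were called higher in E13.5 than in E10.5 in both limbs (by 1.56, 1.65 and 3.11 in forelimb and 1.52, 2.13 and 3.23 in hindlimb). The other 4, Epcam, Cdh1, Trp63 and Esrp1, differed by -0.12 to 0.17 in forelimb and by -0.21 to 0.31 in hindlimb, and their part in the Bhlha9 values was not tested.

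Twist1, a mesenchymal factor that is mutated in human craniosynostosis with limb anomalies, was higher in the limb than in whole embryo in 6 of 9 comparisons, on a single probe set. It read 11.65, 11.46 and 11.40 in E9.5 forelimb, against 10.34 and 8.81 in E9.5 whole embryo. The mean difference was 3.81-fold (adjusted p = 1.10e-10 in limma, 0.0826 with these arrays alone), and since the whole-embryo arrays lay far apart it was 1.17 on the log2 scale without replicate 2 and 2.70 without replicate 1, in place of 1.93. At E10.5 and E11.5 Twist1 was 3.03-fold and 2.92-fold higher in forelimb and 2.73-fold and 2.75-fold higher in hindlimb. At E12.5, when whole embryo read 10.25 and 10.29, the differences were 0.37 in forelimb (adjusted p = 0.0652) and 0.51 in hindlimb (adjusted p = 0.0124). At E13.5 the hindlimb was 2.46-fold higher and the forelimb 0.81 higher on the log2 scale, short of 2-fold. Within the limb Twist1 varied little, with means of 10.59 to 11.08 from E10.5 on. The exception was E13.5 hindlimb, whose 5 arrays (11.12, 11.20, 11.06, 10.996 and 11.01) all lay above those of E13.5 forelimb (10.56, 10.65, 10.54, 10.61 and 10.58).

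Twist2, its close relative in dermis and mesenchyme, was called higher in the limb in 8 of 9 comparisons. In forelimb the group means were 8.96, 9.84, 10.39, 10.66 and 10.46 from E9.5 to E13.5, in hindlimb 9.69, 10.16, 10.48 and 10.59 from E10.5, and in whole embryo 7.88, 8.54, 8.58, 9.32 and 9.58. Means were thus higher at each later stage in all 3 tissues apart from E13.5 forelimb, and the excess over whole embryo was largest at E11.5, 3.50-fold in forelimb (10.24, 10.44, 10.46 and 10.43, against 8.65 and 8.51; adjusted p = 8.98e-16) and 2.97-fold in hindlimb (10.24, 10.17, 10.29, 9.998 and 10.08). E13.5 forelimb, at 0.88 on the log2 scale, was the comparison not called. Between E13.5 and E10.5 the differences were 0.62 in forelimb (adjusted p = 3.42e-07) and 0.90 in hindlimb (adjusted p = 2.35e-10), neither of them 2-fold. The calls near 2-fold were the least firm. The value in E9.5 forelimb was 0.67 without whole-embryo replicate 2, and after quantile normalization the values in E9.5 forelimb, E10.5 forelimb, E10.5 hindlimb and E13.5 hindlimb were 0.72, 0.88, 0.75 and 0.97.

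The E proteins are the partners of the genes above. Tcf3, which encodes E12 and E47, was called higher in the limb in 7 of 9 comparisons by its average. At E11.5 it was 6.01-fold higher in forelimb (9.73 ± 0.07, SD, n = 4) and 6.35-fold higher in hindlimb (9.81 ± 0.04, n = 5) than in whole embryo (7.15 ± 0.73, n = 2). The corresponding folds at E10.5 were 5.53 and 4.47. Calls at E9.5 and E12.5 were lost without 1 array. E9.5 whole embryo read 8.97 and 6.70, and the forelimb difference of 1.37 was 0.23 (adjusted p = 0.551) without replicate 2, 2.51 without replicate 1, and 1.32 (adjusted p = 0.001002), also not called, without E9.5 forelimb replicate 2. At E12.5 the differences of 1.12 in forelimb and 1.06 in hindlimb lost the call without either whole-embryo array. The probe sets differed in size, with 3.43, 2.90 and 1.43 for 1427764_a_at, 1452542_x_at and 1426297_at in E11.5 forelimb over whole embryo, all called. At E12.5 only 2 of the 3 were called in each limb, and the lowest value was 0.19 in forelimb and 0.20 in hindlimb. With stage, Tcf3 fell 2.37-fold in E13.5 against E10.5 forelimb (adjusted p = 3.07e-07), and was 0.74 lower on the log2 scale in E13.5 than in E10.5 hindlimb (adjusted p = 0.00182), under 2-fold. Of the 3 probe sets, 2 were called lower in this comparison in forelimb (-1.59 to -0.78) and 1 in hindlimb (-1.11 to -0.20).

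Tcf4, which encodes E2-2 and is not the Wnt effector of the same older name, lay above whole embryo in all 9 comparisons without overlap of arrays. The differences were 0.55 to 1.14 on the log2 scale, and only those at E11.5 were 2-fold (2.21-fold in forelimb, 2.15-fold in hindlimb), which quantile normalization lowered to 0.83 and 0.79. From the probe set of highest mean alone, the value in E10.5 hindlimb was -0.02 in place of 0.55. Its 6 probe sets were unequal. In each limb, 3 of the 6 were called higher than whole embryo at E11.5, and 1 at E12.5 and at E13.5. Probe set 1434149_at was 2.47 higher in E10.5 forelimb than in whole embryo and 1.88 to 2.59 higher in every other limb group from E10.5 on. In E9.5 forelimb it was 0.36 higher. Its arrays there (8.24, 7.96 and 7.95) lay above those of E9.5 whole embryo (7.58 and 7.80). They fell within the whole-embryo range of 7.58 to 9.03 over all stages. Its step of 2.195 for E10.5 over E9.5 forelimb falls between the array sets. Probe set 1416725_at had group means of 4.18 to 4.80 throughout. With stage, Tcf4 rose 2.15-fold in E13.5 against E10.5 hindlimb (adjusted p = 1.37e-16), and it was 0.57 higher in E13.5 than in E10.5 forelimb (adjusted p = 3.45e-09).

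Tcf12, which encodes HEB, cannot be described by its average, because its 5 probe sets moved in opposite directions. Probe set 1421908_a_at was higher in the limb in all 9 comparisons, by 1.07 in E9.5 forelimb and by 3.09 to 3.26 from E10.5 on, with arrays of 11.24 to 12.11 in the later limb, 9.72 to 10.01 in E9.5 forelimb and 8.18 to 8.91 in whole embryo. Its large step, 2.11 for E10.5 over E9.5 forelimb, falls between the array sets. Probe set 1439619_at was lower in the limb at E10.5 and E11.5 (-2.06 to -2.03 in the 4 comparisons) and higher at E13.5 (1.70 in forelimb, 1.86 in hindlimb). It was also called lower in E9.5 forelimb, within 1 array set, at -1.08 (5.48, 5.57 and 4.84 against 6.04 and 6.71). Within the later limb arrays it rose by 2.15 in E13.5 against E12.5 forelimb and by 2.29 in E13.5 against E12.5 hindlimb, with arrays of 6.12 to 6.39 in E13.5 forelimb and 3.73 to 4.33 in E12.5 forelimb. 1439209_at changed in the same manner, by 1.46 and 1.71 for these steps, whereas 1446294_at was 1.41 lower in E13.5 than in E10.5 forelimb and 1427670_a_at was called in no comparison with whole embryo. The average over the 5 was called only at E13.5, at 1.16 in forelimb and 1.25 in hindlimb. Which transcripts the probe sets read was not determined here.

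**Figure D3:**
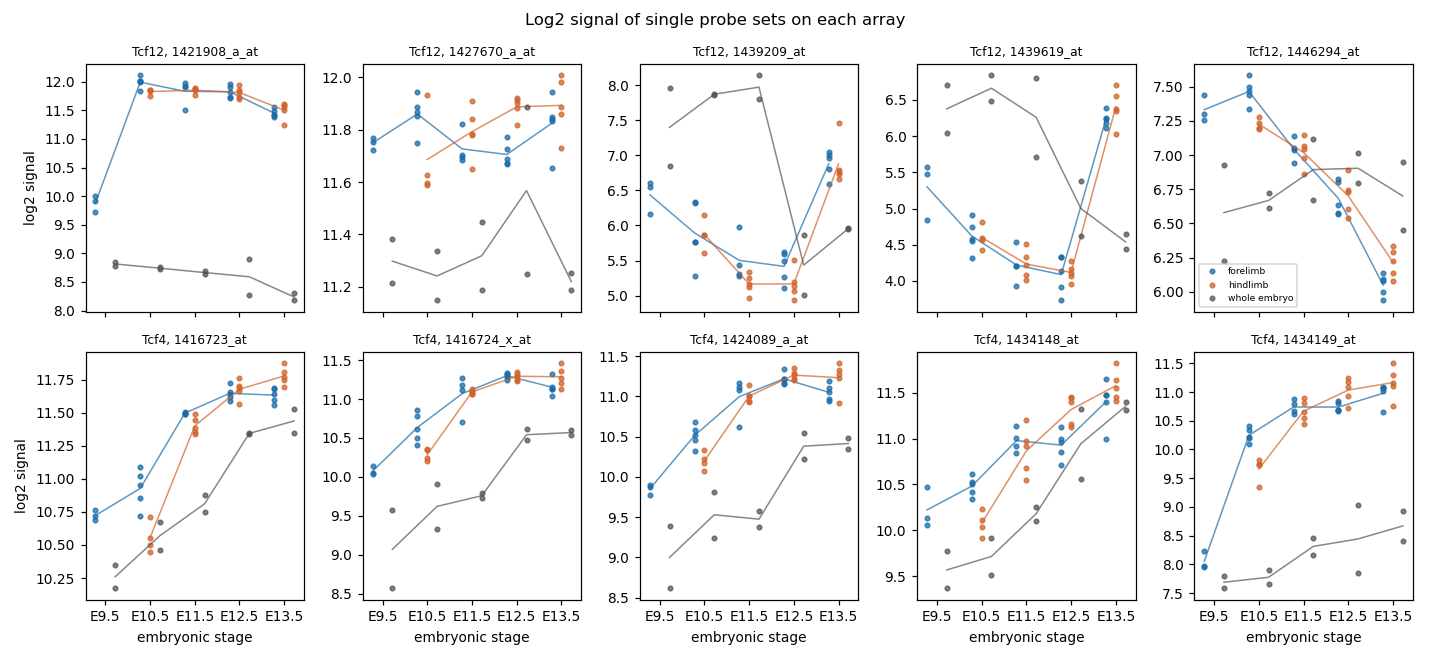
Log2 signal of the 5 probe sets of Tcf12 (upper row) and of 5 of the 6 of Tcf4 (lower row) on each array by embryonic stage, with lines through group means and forelimb, hindlimb and whole embryo in separate colours; 1416725_at of Tcf4, with group means of 4.18 to 4.80, is left out. Tcf12 1421908_a_at lies above 11 in all later limb arrays, while 1439619_at lies below whole embryo at E10.5 and E11.5 and above it at E13.5.

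Hand1 and Tcf21 were not enriched in the limb. Hand1, a relative of Hand2 best known from heart and extraembryonic tissue, had group means of 5.10 to 5.85, no call by its average in limma, and differences of -0.36 to 0.08 from whole embryo, with overlapping arrays in 6 of 9 comparisons. Of the 9 values, 2 passed at an unadjusted p under 0.05 in limma, and 2 at an adjusted p under 0.05 (lowest 0.0255). Its probe set 1417525_at fell by 1.26 in E10.5 against E9.5 forelimb, a step between array sets, and had a mean of 6.60 in E9.5 forelimb and 6.50 in E9.5 whole embryo.

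Tcf21, a factor of mesenchyme around internal organs and of the epicardium, was called lower in the limb than in whole embryo in 7 of 9 comparisons. Probe set 1417447_at had means of 4.39, 3.97, 3.71, 3.67 and 3.46 in forelimb from E9.5 to E13.5, 5.03, 4.33, 3.74 and 4.17 in hindlimb from E10.5, and 6.01, 6.21, 6.36, 7.05 and 7.94 in whole embryo. The other, 1458887_at, stayed between 3.37 and 4.24. The averaged difference was -2.31 in E13.5 forelimb and -2.03 in E13.5 hindlimb. Single arrays stood high. Replicate 5 of E11.5 hindlimb read 5.45, against 3.48 to 3.96 on its 4 companions, and without it the difference from whole embryo was -1.53 (adjusted p = 5.99e-08) in place of -1.17, a call lost without any of 6 other arrays. The E10.5 forelimb call was lost without whole-embryo replicate 2 (-1.27, adjusted p = 0.00526), and the E11.5 forelimb call without either whole-embryo array (-1.41 and -1.38). With the arrays compared alone in the fit, the adjusted p was 0.00114 in E10.5 forelimb and 0.0613 in E11.5 hindlimb, so that both calls were lost. Replicate 4 of E10.5 forelimb read 4.61, against 3.42 to 3.69, and on that array the summed signal of 4 mesothelium and kidney markers was 206, against 73 to 85 on the other 4, with Wt1 at 6.09 against 4.02 to 4.33 and Upk3b at 6.51 against 3.64 to 3.995. Sums of other lists were high on it too, with 615 against 152 to 184 for 8 heart markers, 824 against 403 to 434 for 8 skeletal muscle markers and 346 against 215 to 243 for 6 neuronal markers. The heart sum was carried by Actc1 (8.86 against 4.61 to 5.66), an actin of both heart and skeletal muscle. Myl7 (5.355 against 4.448 to 4.754) and Tnnt2 (4.103 against 3.277 to 3.722) were also higher on this array. Nppa, Myh6, Myh7, Myl2 and Nkx2-5 lay within the range of the other arrays. Replicate 2 of E13.5 hindlimb also read high in Tcf21, at 4.76 against 3.58 to 3.94. There the mesothelium and kidney sum was 109, against 105 to 123 on the other arrays. On E11.5 hindlimb replicate 5 that sum was 128, against 99 to 119. The part of these marker lists in the Tcf21 values was not tested.

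Forelimb and hindlimb of the same stage did not differ in any member at the 2-fold threshold. Of 36 values, 0 were called by limma, 10 had an unadjusted p under 0.05 and 5 an adjusted p under 0.05. Of all genes, 0.418% were called higher and 0.148% lower in E10.5 forelimb, 0.313% and 0.0989% in E11.5 forelimb, 0.462% and 0.044% in E12.5 forelimb, and 0.236% and 0.0495% in E13.5 forelimb. Hand2 was 0.59 lower in E13.5 forelimb than in E13.5 hindlimb (standard error 0.11, adjusted p = 0.000475), and Twist1 was 0.49 lower (standard error 0.13, adjusted p = 0.0161), in both cases without overlap of the 5 arrays against 5. Bhlha9 was 0.51 lower in E11.5 forelimb (adjusted p = 0.0123) and 0.47 lower in E12.5 forelimb (adjusted p = 0.00869), with overlapping arrays in the second case. Tcf4 was 0.39 higher in E10.5 forelimb than in E10.5 hindlimb (standard error 0.08, adjusted p = 0.000278), and 0.34 higher without E10.5 hindlimb replicate 3 (adjusted p = 0.00508).

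Because hindlimb development runs later than that of the forelimb, forelimb was also set against hindlimb of the next stage. Of 36 values, 2 were called, both of Hand2. Of all genes, 1.54% were called higher and 4.55% lower in E9.5 forelimb than in E10.5 hindlimb, 0.242% and 0.747% in E10.5 forelimb than in E11.5 hindlimb, 0.192% and 0.0879% in E11.5 forelimb than in E12.5 hindlimb, and 0.676% and 0.786% in E12.5 forelimb than in E13.5 hindlimb. Hand2 was 2.80-fold lower in E9.5 forelimb than in E10.5 hindlimb (adjusted p = 2.89e-12), across array sets, and 2.65-fold higher in E12.5 forelimb than in E13.5 hindlimb (adjusted p = 3.25e-13). From the probe set of highest mean alone these values were -0.66 and 0.81. Bhlha9 lay on the opposite side in the same-stage and next-stage comparisons. It was 0.35 to 0.51 higher in forelimb than in hindlimb of the next stage (adjusted p of 0.00244 to 0.0443), and 0.22 to 0.51 lower in forelimb than in hindlimb of the same stage.

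The change from E10.5 to E13.5 was compared between the limbs as a difference of differences. It was larger in size in forelimb for Hand2, by -0.78 on the log2 scale (standard error 0.17, adjusted p = 0.000948), with -2.06 in forelimb and -1.28 in hindlimb. For Tcf4 it was smaller in forelimb, by -0.53 (standard error 0.11, adjusted p = 0.000405), with 0.57 in forelimb and 1.10 in hindlimb, and for Twist1 it was -0.64 (adjusted p = 0.0224). Without the discordant E10.5 hindlimb replicate 3 the value was -0.65 for Hand2 (adjusted p = 0.00654) and -0.48 for Tcf4 (adjusted p = 0.00259). None of the 9 genes reached 2-fold in this contrast, in which 0.291% of all genes were called higher and 0.627% lower, and 4 had an unadjusted p under 0.05.

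Between consecutive stages of whole embryo no member was called by its average. Of 36 values 0 were called by limma, 12 had an unadjusted p under 0.05 and 8 an adjusted p under 0.05. The shares of all genes called higher and lower were 0.44% and 0.115% for E10.5 over E9.5, 0.544% and 0.0989% for E11.5 over E10.5, 1.89% and 0.324% for E12.5 over E11.5, and 2.92% and 0.198% for E13.5 over E12.5. The step to E12.5 held 5 of these 8, with 0.98 for Twist1, 0.74 for Twist2, 1.29 for Tcf3, 0.50 for Tcf4 and -0.72 for Tcf12, at adjusted p of 9.48e-05 to 0.00136. For Tcf12 this average hides 2 probe sets called lower, 1439209_at (-2.54) and 1439619_at (-1.26), and 3 with -0.07 to 0.25. Hand2 probe set 1436041_at was called lower in E13.5 than in E12.5 whole embryo (-1.01). The smaller limb excess of Twist1 and Tcf3 at E12.5 thus goes with higher whole-embryo values, on 2 arrays a stage. All genes moved up in this whole-embryo step too, by a median of 0.147, or 0.026 after quantile normalization. Of all called genes, 85.3% were higher in it, or 59.5% after quantile normalization.

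Over the 14 groups the means of Bhlha9 spanned 3.78 on the log2 scale and those of Hand2 3.52, more than 97.8% and 97.1% of all genes, whereas Hand1 spanned 0.75 (35.3%) and Tcf12 by its average 1.25 (65%). Among the 8 limb groups from E10.5 on, Bhlha9 (2.96) and Hand2 (2.48) again had the widest spans of the 9, and Twist1 spanned 0.49, close to the median gene at 0.47. Between neighbours in the order of the 14 means, arrays were apart in 5 of 13 places for Bhlha9, 4 for Twist1, Twist2, Hand2 and Tcf21, 3 for Tcf3 and Tcf4, 1 for Tcf12 and 0 for Hand1, so that most neighbouring groups could not be ordered beyond their spread. As a description, over 8 group means that share litters and labelling, Hand2 and Tcf3 had a Pearson r of 0.970, Twist2 and Tcf4 of 0.927, Bhlha9 and Tcf3 of 0.821, and Bhlha9 and Twist2 of -0.887.

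The genes whose patterns were most like each member were taken by Pearson correlation. Over the 38 limb arrays from E10.5 on, among 3085 genes that spanned 1 log2 or more, they were Nipsnap1, H2az2 and Dhrs4 for Hand2 (0.969 to 0.975), Melk, Trim71 and Pm20d1 for Bhlha9 (0.979 to 0.983), Krt14, Tekt2 and Tmem176b for Twist2 (0.955 to 0.962), Gpt2, Rcc2 and Nnat for Tcf3 (0.971 to 0.972), and Tmem26, Eid1 and Nrep for Tcf4 (0.963 to 0.970). The best matches of the 4 others were weaker for Twist1 (Hoxa10, 0.673), Hand1 (Abca4, 0.590) and Tcf21 (Meis3, 0.583), and 0.945 for Tcf12 (Trpc2). Over the 14 group means, among 8740 genes, the best matches were Ubqln4 for Twist1 (0.952), Slc44a2 for Twist2 (0.988), Chst7 for Hand1 (0.951), Cbx2 for Hand2 (0.989), Imp4 for Bhlha9 (0.968), Ppp4c for Tcf3 (0.996), Zmym3 for Tcf4 (0.986), Paxbp1 for Tcf12 (0.974) and Atp6v0e2 for Tcf21 (0.976). The 38 limb arrays share an array set, and limb arrays of a stage share a litter, whereas the 14 group means cross between the array sets. Most of these genes follow the same course with stage.

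The Id genes, whose products bind the E proteins, moved apart. Id1 was called higher in every limb group from E10.5 on, by 2.63, 3.31, 2.92 and 2.36 in forelimb and by 2.28, 2.98, 2.95 and 2.64 in hindlimb over these 4 stages, and was 0.44 higher in E9.5 forelimb, within 1 array set and under 2-fold. Id3 was called in 6 of 9 comparisons, up to 1.40 in E11.5 forelimb, and Id2 in none. Id4 was called lower in all 9, from -3.06 in E10.5 hindlimb to -1.35 in E11.5 forelimb. Id4 also rose with stage, by 1.79 in E13.5 against E10.5 forelimb and by 1.87 in E13.5 against E10.5 hindlimb, and was 2-fold or more higher in forelimb than in hindlimb at E11.5 (1.16) and E12.5 (1.10).

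Of the 16 measured bHLH genes of neurons and their progenitors, 0 were called higher by limma in any limb group, or had a higher value at an unadjusted p under 0.05 (0 in all 9 comparisons), and 12 were called lower in both limbs at E11.5, with a median log2 fold change of -2.23 in forelimb and -2.35 in hindlimb. Nhlh2 was lowest (-6.33 in forelimb, -6.40 in hindlimb), followed by Neurog2 (-5.12 and -5.06) and Neurod1 (-4.62 and -4.47). Of 7 Hes and Hey genes, Hes5 and Hey2 were called lower in every comparison and Hes1 higher in both limbs at E10.5 and E11.5, up to 1.49. Hes6 was the only other gene of this list called higher than whole embryo in a limb group. Scx, the tendon progenitor factor, was called higher in forelimb from E10.5 on and in hindlimb from E11.5 on, up to 1.73. Of the 5 muscle genes, Myod1, Myog and Msc were called higher in E11.5 forelimb (1.27, 2.37 and 1.28), with 0.65, 1.01 and 0.49 in E11.5 hindlimb, not called. At E10.5 the same list held lower calls, Myf6 in forelimb (-1.78) and Myf5, Myf6 and Msc in hindlimb (-1.52, -1.37 and -1.11). Myf5 and Msc were called higher in E10.5 forelimb than in E10.5 hindlimb (2.12 and 1.26). Myog rose by 5.39 in E13.5 against E10.5 forelimb and by 5.38 in E13.5 against E10.5 hindlimb. Tal1, the blood stem cell factor, was called lower in E11.5, E12.5 and E13.5 forelimb (-1.34, -2.61 and -4.61) and in hindlimb at all 4 stages (-1.09, -1.75, -2.78 and -4.76).

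**Figure D4:**
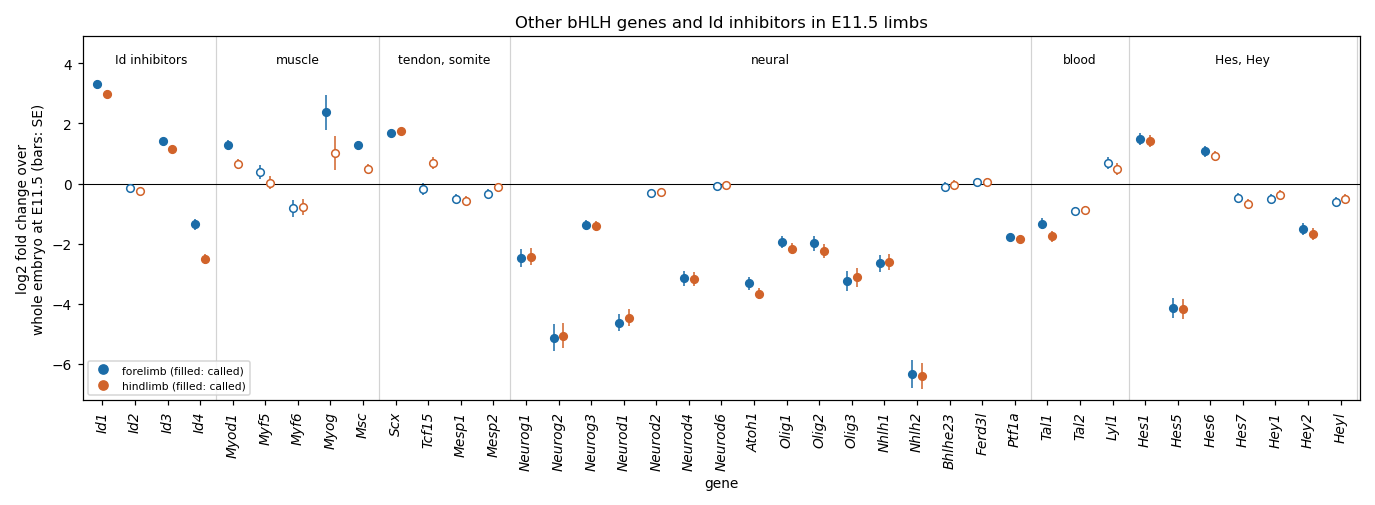
Log2 fold change of the other bHLH genes and the Id genes in E11.5 forelimb and E11.5 hindlimb over E11.5 whole embryo, grouped by role along the horizontal axis, with standard errors of the fit and filled points for called values. Id1 is highest, at 3.31 in forelimb and 2.98 in hindlimb, and 12 of the 16 neural genes lie below -1 and are called, down to Nhlh2 at -6.33 and -6.40.

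Among the 17 measured genes of limb bud signalling, several of the posterior and ridge centres fell over the same days as Hand2 and Bhlha9. In E13.5 against E10.5 forelimb 6 of the 17 were called lower and 0 higher by limma (10 and 5 at an unadjusted p under 0.05), and in hindlimb 5 lower and 2 higher (9 and 7 at an unadjusted p under 0.05). Of all genes, 5.13% were called lower and 5.43% higher in forelimb, and 5.16% and 5.99% in hindlimb. The ridge signal Fgf8 fell by 4.83 in forelimb and 4.96 in hindlimb, the posterior signal Shh by 2.84 and 2.70, and the BMP antagonist Grem1 by 2.12 and 2.64. The courses were not the same gene by gene. Shh averaged 5.04 ± 0.38 in E11.5 forelimb (SD, n = 4) and 6.51 ± 0.31 in E11.5 hindlimb (n = 5), a called difference of -1.46, when Hand2 was at its highest in both limbs, and Grem1 was also lower in E11.5 forelimb than in E11.5 hindlimb (-1.54). Hoxd13, the digit gene, had means of 9.42, 11.04, 11.04 and 9.75 in forelimb by stage from E10.5 and 8.60, 10.63 and 10.32 in hindlimb of E10.5, E11.5 and E13.5, with hindlimb arrays of 10.80 to 11.15 at E12.5, which is 0.34 for E13.5 over E10.5 in forelimb (adjusted p = 0.0591) and a called 1.71 in hindlimb. Tbx3, which is active at the limb margins, and Gli3, which opposes Hand2 in the anterior bud, changed by less than 2-fold over these stages in both limbs (-0.54 and -0.37 for Tbx3, -0.17 and 0.38 for Gli3, in forelimb and hindlimb).

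**Figure D5:**
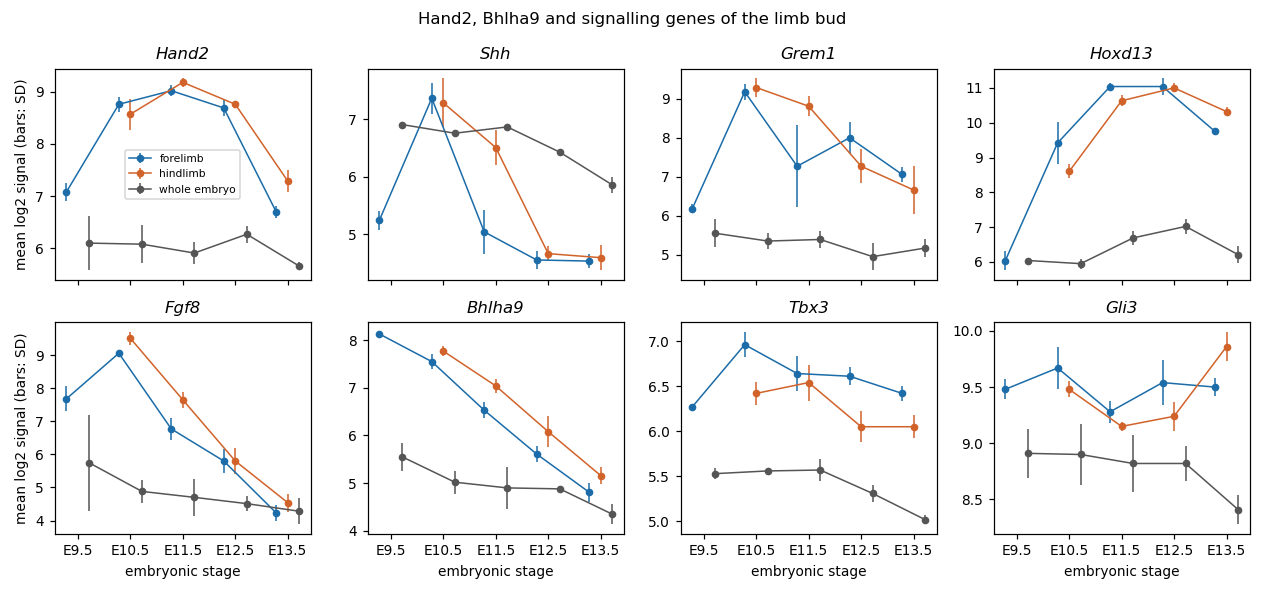
Mean log2 signal with SD of Hand2, Bhlha9 and 6 signalling or patterning genes by embryonic stage in forelimb, hindlimb and whole embryo; levels of different genes are not comparable. Fgf8 and Bhlha9 decline from E10.5 on in both limbs, Shh is at 5.04 in E11.5 forelimb and 6.51 in E11.5 hindlimb, and Hand2 is 2-fold or more lower than at the stage before only at E13.5.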

How the data were processed

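Per the study's methods, the authors derived the expression values with RMA at default settings, which corrects background, normalizes and summarizes probe sets, and replaced values under a blemish on 1 array (whole embryo, E12.5) by a median of replicate arrays. What was deposited are linear intensities of 45101 probe sets on 51 arrays, and log2 was taken here (2.29 to 14.79, median 5.31). The number of arrays limits the precision. Tissue and stage were taken from array titles. Of 35890 probe sets in the annotation, 34958 carried 1 symbol and 932 several, and a further 9211 had no entry. The log2 values of those with 1 symbol were averaged into 18194 genes, 9182 of them with 1 probe set. A single limma 3.58.1 fit held the 14 groups (lmFit, eBayes; 37 residual degrees of freedom) in R 4.3.3 with statmod 1.5.0, and p-values were adjusted by Benjamini-Hochberg over all genes within each comparison. A call needed a fold change of 2 and an adjusted p under 0.001. The script was tested on simulated data. The members, gene lists and tests were chosen with earlier results of these data known. Named are the 9 members, for each the 3 genes of highest correlation, and up to 4 genes of largest change in each list. Some genes of the lists were not analysed here. Replicate numbers pair the samples only by name: of 18 pairs of arrays with a shared number, 9 had a correlation of deviations over 0.1 (-0.11 to 0.347). Alternatives were another summary of probe sets, quantile normalization, a filter on low genes, other thresholds and fits, other labels for 2 arrays, and leaving out each array; leaving out dim probe sets was added after seeing the data.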

Additional observations from a re-analysis of the deposited data

Results flagged for a closer look

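Across the 72 groups of 4 or 5 arrays, 1 group for each member and each limb stage, 5 held an array far from the others, and chance flags about 1 in 20 groups. Twist1 read 10.61 on replicate 2 of E10.5 forelimb, against 10.80 to 10.86 on the other arrays. Twist2 read 10.24 on replicate 1 of E11.5 forelimb, against 10.43 to 10.46. Tcf3 read 9.74 on replicate 5 of E11.5 hindlimb, against 9.82 to 9.84. Tcf21 read 4.61 on replicate 4 of E10.5 forelimb, against 3.42 to 3.69, and 5.45 on replicate 5 of E11.5 hindlimb, against 3.48 to 3.96. The E11.5 hindlimb replicate 5 with both a low Tcf3 and a high Tcf21 value is 1 of the 2 arrays whose title and source label disagree. The other arrays of its title group averaged 3.65 for Tcf21 and 9.83 for Tcf3. Those of its source label group, E12.5 forelimb, averaged 3.50 and 9.54.

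The change from E10.5 to E13.5 differed between forelimb and hindlimb for 2 genes at an adjusted p under 0.001. Hand2 had -0.78 on the log2 scale for forelimb change minus hindlimb change (adjusted p = 0.000948), and Tcf4 had -0.53 (adjusted p = 0.000405). In the hindlimb, all 4 arrays at E10.5 enter both values, including replicate 3 with its high neuronal markers, and without that array they were -0.65 (adjusted p = 0.00654) for Hand2 and -0.48 (adjusted p = 0.00259) for Tcf4.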

How the results depend on the processing

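No called value of the 9 members turned direction in the alternatives run. Of 5392 values under alternatives, 143 of uncalled comparisons did, 63 of them with 1 array left out, 31 with the probe set of highest mean, 11 without dim probe sets and 10 with probe sets fitted singly, as for Tcf12 in E11.5 forelimb over whole embryo (0.41 on the probe set of highest mean, in place of -0.16). Called values of limb over whole embryo numbered 46, 44 to 47 without any 1 array, 31 to 47 under the other settings that keep both thresholds, and 45 with a replicate block. Counts that moved were as follows. With an adjusted p under 0.05 and no fold threshold, 5 forelimb against hindlimb values passed in place of 0, 18 forelimb against next-stage hindlimb in place of 2, 17 forelimb steps in place of 3, 13 hindlimb steps in place of 1, 8 whole-embryo steps in place of 0, 13 of E13.5 against E10.5 in place of 6, and 3 differences between the limbs in place of 0. The probe set of highest mean gave 0 next-stage values, 0 hindlimb steps and 1 whole-embryo step, and probe sets fitted singly gave 0, 0 and, for E13.5 against E10.5, 3. Hindlimb steps numbered 2 with groups from the source label and 2 with array weights, and whole-embryo steps 1 with quantile normalization, 1 without low genes and 1 without dim probe sets, the last added after seeing the data. Without any 1 array, the ranges were 0 to 0 for forelimb against hindlimb, 2 to 2 for next-stage hindlimb, 2 to 3 for forelimb steps, 1 to 2 for hindlimb steps (2 without E11.5 hindlimb replicate 4 or E12.5 hindlimb replicate 1), 0 to 3 for whole-embryo steps (2, 3 and 2 without E9.5 replicate 1, E9.5 replicate 2 and E11.5 replicate 2), 6 to 6 for E13.5 against E10.5, and 0 to 0 for the difference between the limbs. The replicate block, whose numbers only name samples, gave 0 calls of forelimb against hindlimb, and changed the calls of Twist2 (1.00, lost) and Hand2 (1.08, gained) in E9.5 forelimb and of Tcf3 in E12.5 hindlimb (1.10, lost) over whole embryo.

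Quantile normalization moved the median log2 fold change of all genes by -0.116 in E11.5 forelimb and -0.107 in E11.5 hindlimb over whole embryo and by -0.122 in E12.5 over E11.5 whole embryo, and by less than 0.1 elsewhere. Beyond the comparisons with whole embryo, it changed the share of up-regulated genes among called genes by more than 10 percentage points in E9.5 forelimb over E10.5 hindlimb (37.1% in place of 25.3%), E12.5 forelimb over E13.5 hindlimb (29% in place of 46.2%), E10.5 over E9.5 forelimb (59.8% in place of 76.1%), E13.5 over E12.5 forelimb (70.2% in place of 52.3%) and E12.5 over E11.5 whole embryo (59.5% in place of 85.3%). When only the arrays compared entered a fit, 6 calls were lost, 4 in E9.5 forelimb and 2 of Tcf21. Of 2268 single values with 1 array left out, 25 lost and 12 gained a call.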
